A study of Mus musculus with 20 samples.

Results

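The 10 genes of lipid handling described here were read across every cell cluster of the mouse spinal cord, from uptake (Lpl, Cd36) through binding of fatty acids (Fabp3, Fabp4, Fabp5, Fabp7) and storage in droplets (Plin2) to lysosomal breakdown (Lipa) and export of cholesterol (Abca1, Abcg1). They were chosen by symbol, and 10 of 10 were found among the 16003 genes of the count table. The cells came from spinal cords of female C57BL/6J mice, 8 to 10 weeks old, in 6 single-cell libraries with 1 library per condition. Vehicle-fed mice gave a sham library, a library at 7 days after a T9 contusion (7 dpi) and 1 at 28 dpi, and mice fed PLX5622 gave the same 3. PLX5622, an inhibitor of the CSF1 receptor on which microglia depend for survival, was mixed into the chow at 1200 ppm (as the labels give it) from 2 weeks before surgery until the end point. Sham mice had a laminectomy only, and the label of each sham library names both days, so each diet has 1 sham reference for both times. Each library pooled 3 to 4 mice, the cords were not perfused, so that blood cells could be carried along, and myelin and dead cells were removed after dissociation.

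Spinal cord injury leaves large amounts of myelin debris, whose lipid is taken up by phagocytes. Lipoprotein lipase (Lpl) frees fatty acids from lipoproteins, Cd36 is a scavenger receptor that also takes up long-chain fatty acids, and fatty acid-binding proteins carry these acids through the cytoplasm. Plin2 coats lipid droplets, in which surplus fatty acids and cholesterol are held as esters. Lysosomal acid lipase (Lipa) cleaves cholesteryl esters and triglycerides that arrive by endocytosis, and the transporters Abca1 and Abcg1 pass cholesterol out of the cell to apolipoproteins and lipoprotein particles. Macrophages that take up more lipid than they export become foam cells, which are known from the injured cord. The comparisons ask how these genes stood after injury and when most microglia were missing.

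The table held 21016 cells in 14 clusters, with 492 to 9846 cells and 2606149 to 35694246 unique molecular identifiers (UMIs, 1 per captured transcript) per library. Clusters were named by markers, of which 80 of 84 were in the table and 69 had their highest level in the cluster of their name, so that "microglia" or "astrocytes" means microglia-like or astrocyte-like cells. Monocyte-derived macrophages (MDMs) are named in the same way. In the order sham, 7 dpi and 28 dpi, the vehicle libraries held 674, 2154 and 3974 microglia and 185, 3023 and 3313 MDMs, and the PLX5622 libraries 29, 61 and 126 microglia and 9, 100 and 161 MDMs. Levels are UMIs of a gene per 1000000 UMIs (CPM) of the same cluster in the same library. They are given as sham, 7 dpi and 28 dpi, vehicle first and PLX5622 second. With 1 library per condition no test between conditions is possible. Ranges in parentheses are 95% intervals for counting error alone, exact Poisson for a level and exact conditional binomial for a log2 ratio, and say nothing of the variation between mice. A ratio was formed where the libraries compared held 100 or more UMIs of a gene between them, and "at least 2-fold" is a limit of size and not of significance. Across the table, 44 cell barcodes occurred in more than 1 library, with at most 21 shared by any pair.

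Transcripts of macrophages also turned up in T cells. C1qa, a complement gene made by macrophages, was at 216, 3842 and 3937 CPM in T cells of the vehicle libraries and at 19.6, 298 and 270 CPM in those of the PLX5622 libraries, against 3747 to 14361 CPM in microglia and MDMs. The summed level of 12 myeloid genes, among them C1qa, Tyrobp and Csf1r, was 4535, 20411 and 18054 CPM in T cells of the vehicle libraries and 1935, 3326 and 2942 CPM in those of the PLX5622 libraries. Part of this sum may be the cells' own, since the T cell cluster had Gzma and Nkg7 among its leading genes, and lymphocytes and natural killer cells are known to make Tyrobp, Fcer1g or Laptm5. These 3 were at 1087, 1411 and 767 CPM in sham vehicle T cells. The same sum was 36571 to 60670 CPM in microglia and MDMs. T cells of the same library therefore stand below as the measure of such background, and a level at or under theirs is not read as expression. This summed level leans on a part of the T cells. For Lpl, the 100 UMIs of the 7 dpi vehicle library came from 26 of 153 T cells. With each cell weighted alike, T cells had 138 and 194 CPM of Lpl at 7 and 28 dpi under vehicle, against 270 and 399 CPM summed. A level close to theirs thus hangs on the measure. Abcg1 is an exception, since T cells may make it themselves. Their median depth was 1233 to 4341 UMIs per cell, against 1686 to 6448 in microglia.

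MDMs carried most transcripts of 9 of the 10 genes. Over all libraries they held 87.1% of Fabp4 UMIs, 86.1% of Fabp5, 78.0% of Fabp3, 76.1% of Cd36, 75.0% of Plin2, 71.5% of Lipa, 69.6% of Lpl, 64.4% of Abcg1 and 62.2% of Abca1. Microglia came next for Abca1 (21.6%), Abcg1 (18.9%), Lpl (18.4%), Fabp3 (12.3%) and Lipa (12.0%). Fabp7 was the exception, with 36.0% of its 1631 UMIs in astrocytes, 30.5% in cells of the oligodendrocyte lineage and 14.5% in ependymal cells. These shares follow cell numbers as well as levels. Fabp4 and Fabp5 were among the 10 genes with the highest fold in the MDM cluster, and the clusters were built from the expression of these cells, so that the order of clusters is a description only.

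**Figure D1:**
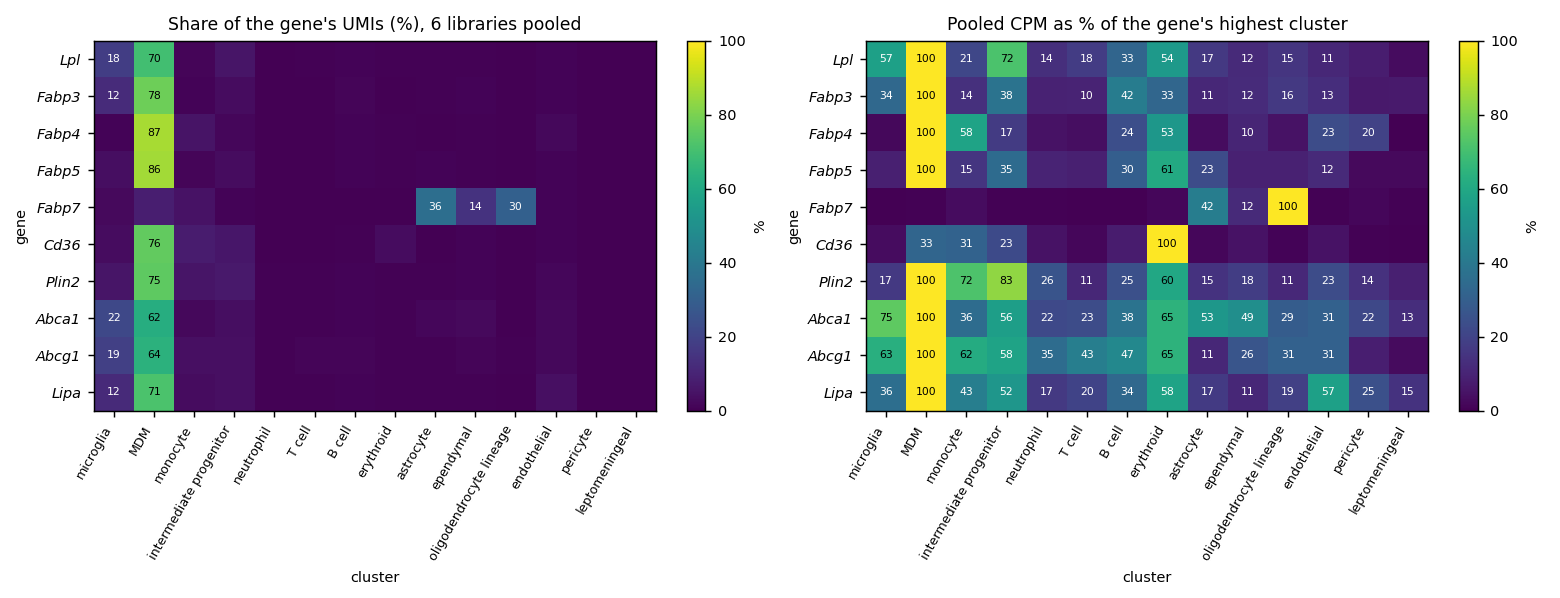
Distribution of the 10 genes over 14 cell clusters with the 6 libraries pooled. The left map gives the percent of a gene's UMIs found in each cluster and the right map its CPM as percent of its highest cluster, with values of at least 10 printed. MDMs lead for 9 genes on the left and for 8 on the right, where Cd36 peaks in erythroid cells and Fabp7 in the oligodendrocyte lineage.

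The regulatory sequence before the start of the gene is shown for 3 members, Fabp3 and Fabp7 because these related genes lay in different cells, and Lipa because endothelial cells carried it besides MDMs. The 250 bases before each start are from RefSeq on GRCm38.p6, in lower case with searched motifs in capitals. The windows are chr4:130308488-130308737 on the plus strand (Fabp3), chr10:57784673-57784922 on the plus strand (Fabp7) and chr19:34527475-34527724 on the minus strand (Lipa).
Fabp3: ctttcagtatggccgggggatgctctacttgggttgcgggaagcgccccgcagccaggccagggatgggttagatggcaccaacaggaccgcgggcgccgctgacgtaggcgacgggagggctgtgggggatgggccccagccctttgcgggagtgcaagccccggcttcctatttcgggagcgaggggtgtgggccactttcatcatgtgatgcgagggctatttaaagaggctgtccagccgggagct
Fabp7: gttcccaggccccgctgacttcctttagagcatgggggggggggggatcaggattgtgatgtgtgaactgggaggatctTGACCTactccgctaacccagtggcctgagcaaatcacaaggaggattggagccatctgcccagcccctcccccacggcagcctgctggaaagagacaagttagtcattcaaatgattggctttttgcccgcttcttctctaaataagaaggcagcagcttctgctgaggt
Lipa: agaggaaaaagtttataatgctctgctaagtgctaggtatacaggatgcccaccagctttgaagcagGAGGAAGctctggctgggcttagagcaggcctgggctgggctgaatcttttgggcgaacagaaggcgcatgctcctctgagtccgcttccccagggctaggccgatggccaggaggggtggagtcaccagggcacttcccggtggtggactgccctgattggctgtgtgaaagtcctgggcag
Of the 10 members, 6 had a window in the RefSeq table, of which those of Cd36 (all 250 bases), Plin2 (158 bases) and Abca1 (93 bases) lie wholly or in part inside the annotated span of the gene. In these 6 windows 4 motifs were searched on both strands. AGGTCA, a half-site of nuclear receptors, was in 3 of the 6 windows (Fabp7, Cd36 and Plin2) and in 14.02% of 32851 promoters of this length. In Fabp7 it stands on the opposite strand, so that TGACCT is in capitals. GAGGAAG, the core of a PU.1 site, was in the Lipa window and in 10.61% of all promoters. CACGTG, an E-box, was in the Abca1 window and in 6.021% of all promoters, and TGAGTCA, an AP-1 site, was in none of the 6 and in 4.463% of all. No window of the 6 held more than 1 of these motifs, and a match says only that the letters are there.

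Lpl lies on chromosome 8 (68880555 to 68906932, GRCm38.p6). With Fabp3 left aside, it set injured microglia apart from sham microglia the most among members above the background. Fabp3 had 3 UMIs in sham vehicle microglia, so that it reached the minimum of UMIs through the injured libraries alone and had to differ. Microglial Lpl was at 53.4 (44.0 to 64.3), 551 (533 to 569) and 881 (861 to 902) CPM in the vehicle libraries. Under PLX5622 the levels were 49.4 (19.9 to 102), 250 (203 to 306) and 188 (150 to 234) CPM. Both sham libraries were thus low and all 4 injured libraries higher, with the vehicle libraries highest and no overlap of the intervals between sham and injury. The log2 ratio over sham vehicle was 3.37 at 7 dpi and 4.04 at 28 dpi. T cells had 270 and 399 CPM of Lpl in the same injured vehicle libraries, and microglia exceeded them by 1.03 (0.74 to 1.33) and 1.14 (0.96 to 1.33) in log2. In the 28 dpi PLX5622 library, where T cells were at 5.09 CPM, microglia stood far above them. After each cell was thinned to 1000 UMIs, 4.93%, 28.5% and 34.8% of vehicle microglia had an Lpl UMI, beside 0%, 11.6% and 14.5% of T cells.

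Microglia of PLX5622-fed mice carried less Lpl than those of vehicle-fed mice at both times. In log2 the difference between diets was -1.14 (-1.45 to -0.85) in the 7 dpi pair of libraries and -2.23 (-2.56 to -1.91) in the 28 dpi pair. With each cell weighted alike the first was -0.32. The background also differed between these libraries, since T cells had 71.9 and 5.09 CPM of Lpl under PLX5622, and its part in the ratio was not tested.

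In MDMs Lpl had another order. It was at 1481 (1419 to 1546), 724 (712 to 735) and 1655 (1633 to 1676) CPM in the vehicle libraries, so that 7 dpi was the low point. Under PLX5622 it was at 769 (728 to 811) CPM at 7 dpi and 723 (677 to 771) CPM at 28 dpi, and the 9 MDMs of the sham library gave 339 (212 to 513) CPM. The 28 dpi vehicle library was the highest of the 6, and the PLX5622 library of that day stood below it by -1.20 (-1.29 to -1.10) in log2. The ratio of 7 dpi over sham under vehicle was -1.03 (-1.10 to -0.97), and -0.68 with TMM factors. After thinning, 36.0% (28.9 to 43.6), 33.9% (32.2 to 35.6) and 58.6% (56.9 to 60.3) of vehicle MDMs had an Lpl UMI. By this share sham and 7 dpi overlapped in their intervals and 28 dpi stood above both. Proliferating cells of the intermediate progenitor cluster were at 6.39, 770 and 1073 CPM of Lpl under vehicle and at 134, 973 and 118 CPM under PLX5622. The first value rests on 2 UMIs in 29 cells, and the PLX5622 values on 7, 10 and 16 cells.

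Per 1000 UMIs of the 12 myeloid genes, Lpl was at 10.7 in microglia, 18.9 in MDMs and 13.2 in T cells of the 7 dpi vehicle library, and at 18.1 in astrocytes and 16.9 in endothelial cells. The values of the last 3 types lay between those of microglia and MDMs, with T cells making some of the 12 genes themselves. At 28 dpi under vehicle the values were 17.7, 38.6, 22.1, 36.1 and 23.1 in the same order of types. Not all types lay between microglia and MDMs. Ependymal cells, at 27.1 and 43.4, and the oligodendrocyte lineage, at 35.4 and 46.5, stood above MDMs at 7 and 28 dpi. Endothelial Lpl, at 157 and 262 CPM in these 2 libraries, was below the level of T cells.

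**Figure D2:**
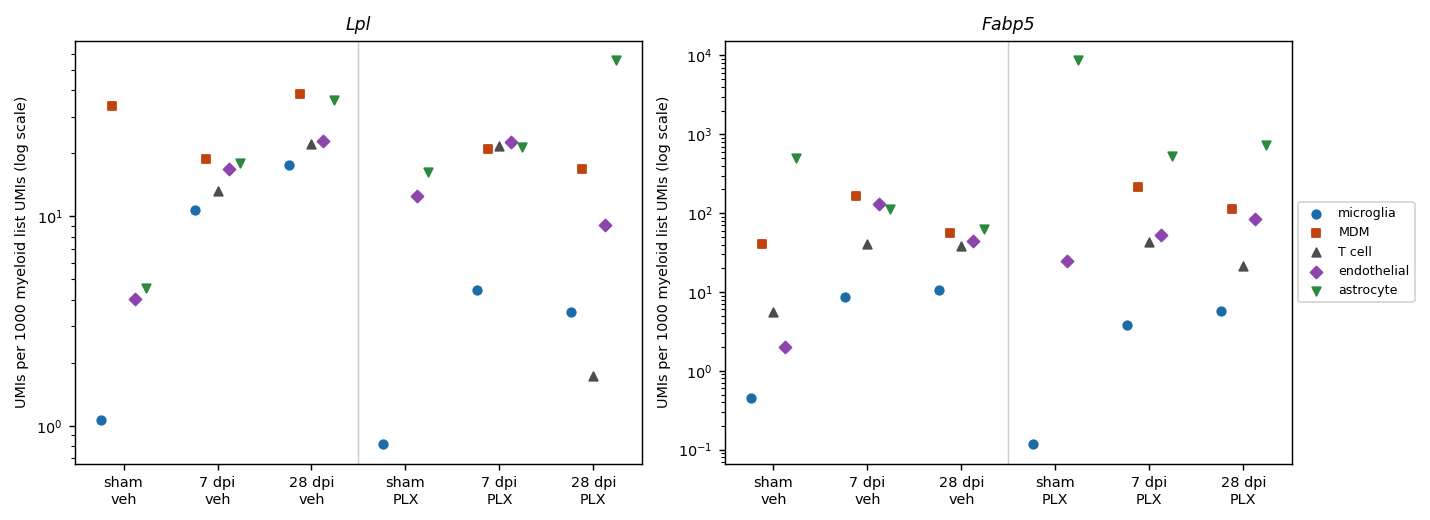
UMIs of Lpl (left) and Fabp5 (right) per 1000 UMIs of 12 myeloid genes, on a log axis, in 5 cell types and 6 libraries. Types with no UMI of the gene or under 20 cells are not drawn. For Lpl in injured vehicle cords, T cells, endothelial cells and astrocytes lie between microglia and MDMs (10.7 to 18.9 at 7 dpi), and for Fabp5 astrocytes stand highest in the sham and PLX5622 libraries.

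Cd36 (chromosome 5, 17781690 to 17888959) was found in MDMs at 7 dpi, in monocytes and in erythroid cells. In MDMs it was at 26.1 (18.4 to 36.0), 127 (122 to 132) and 13.6 (11.8 to 15.7) CPM under vehicle. Under PLX5622 it was listed at 0 in the 9 sham MDMs, at 227 (205 to 250) CPM at 7 dpi and at 51.3 (39.7 to 65.2) CPM at 28 dpi. Both 7 dpi libraries were high, and the PLX5622 library exceeded the vehicle library at each time. In log2 the excess was 0.84 (0.68 to 0.99) at the earlier time and 1.91 (1.48 to 2.32) at the later one, or 0.93 at the later one with cells weighted alike. The 66 UMIs of the 28 dpi PLX5622 library came from 12 of 161 MDMs. After thinning, 3.33% (1.09 to 7.61) of MDMs in that library had a Cd36 UMI, beside 1.26% (0.905 to 1.70) in the 28 dpi vehicle library. Erythroid cells, whose late precursors are known to carry the receptor, ranged from 23.6 CPM (2 UMIs) to 1439 CPM (13 UMIs in 5 cells). At 7 dpi under vehicle they were at 269 CPM, with 38914 CPM of the summed myeloid genes, whose part was not tested. In the sham PLX5622 library they were at 506 CPM with a sum of 46.0 CPM. Microglia ranged from 0 to 11.5 CPM. Monocytes were at 134, 78.9 and 102 CPM under vehicle, above MDMs in the sham and 28 dpi libraries, and at 50.1, 30.4 and 16.0 CPM under PLX5622.

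Fabp3, the heart-type binding protein (chromosome 4, 130308738 to 130315463), was near 0 in sham microglia. In injured microglia it was above T cells beyond counting error, except at 7 dpi under PLX5622. Microglia were at 1.43 (0.295 to 4.18), 40.6 (35.9 to 45.7) and 42.8 (38.3 to 47.6) CPM under vehicle, the first resting on 3 UMIs. Under PLX5622 they were at 0, 33.9 (18.1 to 58.0) and 34.9 (19.5 to 57.6) CPM. The 4 injured libraries overlapped in their intervals. Over sham vehicle, the 7 dpi library was at a log2 ratio of 4.83 (3.26 to 7.11) and the 28 dpi library at 4.90 (3.34 to 7.19), with T cells at 13.5 and 22.4 CPM. Under PLX5622 T cells had 0 UMIs at 7 and 28 dpi, set to 3 counts. Over them, microglia were at 0.14 in log2 at 7 dpi, with a lower limit of -0.37. At 28 dpi they were at 2.19, with a lower limit of 1.71. MDMs were at 68.4, 89.7 and 137 CPM under vehicle and at 84.7 and 131 CPM after injury under PLX5622, so that the intervals of the diets overlapped on each day.

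Fabp4, the adipocyte-type protein, which macrophages also make (chromosome 3, 10204342 to 10208616), was found in MDMs and monocytes. MDMs were at 59.9 (47.9 to 74.1), 220 (214 to 227) and 35.1 (32.0 to 38.3) CPM under vehicle. In PLX5622-fed mice the level was 0 in 9 cells, 357 (330 to 386) and 267 (239 to 296) CPM. The level in the vehicle libraries was high at 7 dpi alone, while in the PLX5622 libraries it was high at both times. Between diets the log2 ratio was 0.70 (0.57 to 0.82) in the 7 dpi pair and 2.93 (2.72 to 3.13) in the 28 dpi pair, the widest between diets of any member in MDMs. After thinning, 12.0% and 1.78% of vehicle MDMs had a UMI at 7 and 28 dpi, and 19.2% and 7.33% of those under PLX5622. Monocytes were at 30.7, 87.7 and 182 CPM under vehicle and at 12.5, 98.9 and 12.8 CPM under PLX5622. Endothelial cells of the 28 dpi vehicle library were listed at 80.0 CPM, but 0.952% of their cells carried these UMIs.

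Fabp5, the epidermal-type protein (chromosome 3, 10012585 to 10016610), was the member with the most UMIs, 209899 in all. MDMs were at 1806 (1737 to 1877), 6282 (6247 to 6317) and 2417 (2391 to 2443) CPM under vehicle. The PLX5622 libraries were at 693 (505 to 927), 7752 (7622 to 7883) and 4787 (4668 to 4908) CPM. The 7 dpi libraries were the highest for each diet, and the PLX5622 library was the higher at 28 dpi by 0.99 (0.95 to 1.03) in log2, with 0.30 at 7 dpi. After thinning, 85.7% and 74.6% of vehicle MDMs had a UMI at 7 and 28 dpi, beside 28.1% and 24.1% of T cells.

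By CPM, microglial Fabp5 was not above the background in the vehicle libraries. Microglia were at 22.4 (16.5 to 29.8), 442 (426 to 458) and 535 (519 to 552) CPM under vehicle, while T cells were at 25.2, 821 and 692 CPM. Set against T cells in log2, microglia were at -0.90 (-1.07 to -0.72) in the 7 dpi library and at -0.37 (-0.51 to -0.22) in the 28 dpi library. By this measure the log2 ratios of 4.30 and 4.58 over sham are not read as expression by microglia. After thinning, 29.8% and 32.8% of vehicle microglia had a Fabp5 UMI at 7 and 28 dpi, beside 28.1% and 24.1% of T cells. At 28 dpi the order of microglia and T cells thus hangs on the measure. Under PLX5622 microglia were at 7.06 (0.179 to 39.3), 217 (172 to 268) and 309 (259 to 367) CPM, and T cells at 0, 144 and 63.6 CPM. There the microglia lay above T cells at 28 dpi, by 2.28 (1.66 to 2.96) in log2, while the interval at 7 dpi (-0.24 to 1.52) held 0. Astrocytes carried Fabp5 in every library, at 835, 2498 and 1314 CPM under vehicle and at 913, 1171 and 693 CPM under PLX5622.

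Fabp7, the brain-type protein of glia and their precursors (chromosome 10, 57784923 to 57788450), had its highest levels in the oligodendrocyte lineage, whose cluster also held the precursor gene Pdgfra among its leading genes. The level there was 872 (677 to 1105), 644 (560 to 737) and 466 (345 to 616) CPM under vehicle. The PLX5622 libraries were at 380 (140 to 828), 613 (493 to 753) and 600 (470 to 754) CPM, the first from 4 cells. Of the 6 intervals, those of sham vehicle and 28 dpi vehicle were the pair that did not overlap. Astrocytes were at 301 (264 to 342), 196 (137 to 271) and 171 (134 to 216) CPM under vehicle. Under PLX5622 they were at 224 (187 to 265), 771 (613 to 959) and 218 (150 to 306) CPM, so that the 7 dpi library, with 39 astrocytes, stood above the other five. Its 81 UMIs came from 12 cells, and after thinning 29.2% of its astrocytes had a UMI, beside 25.3% in sham vehicle. T cells had at most 9.82 CPM.

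Plin2 (chromosome 4, 86626910 to 86670217) was highest in MDMs at 7 dpi. MDMs were at 133 (114 to 153), 837 (824 to 850) and 248 (239 to 256) CPM under vehicle. With PLX5622 the levels were 139 (63.4 to 263), 681 (643 to 721) and 332 (301 to 365) CPM. The order of the 3 stages was the same in both diets, and the log2 ratio of 7 dpi over sham under vehicle was 2.66 (2.45 to 2.87). Of the vehicle MDMs thinned to 1000 UMIs, 7.43%, 43.9% and 19.6% had a Plin2 UMI. Monocytes also had their highest level at 7 dpi, with 193, 551 and 213 CPM under vehicle and 226, 548 and 116 CPM under PLX5622. Microglia were at 24.3, 144 and 79.5 CPM under vehicle, where T cells had 21.6, 165 and 68.9 CPM, so that no microglial level of the vehicle libraries exceeded the background beyond counting error. Under PLX5622 microglia were at 28.2, 78.3 and 37.2 CPM. T cells had their lowest level of any library, 10.3 CPM in 23 cells, at 7 dpi under PLX5622, and microglia stood above them there. The reading of microglial Plin2 as background is thus made for the vehicle libraries alone.

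Lipa (chromosome 19, 34492316 to 34527474) was found in MDMs and in endothelial cells, and varied little in microglia. MDMs were at 337 (308 to 369), 535 (525 to 545) and 379 (368 to 389) CPM under vehicle. In the PLX5622 libraries MDMs had 154 (73.8 to 283), 538 (504 to 574) and 461 (424 to 499) CPM. Both 7 dpi libraries were high and alike. Microglia stayed within 113 to 180 CPM in all 6 libraries, and at 7 dpi under vehicle their 176 CPM did not exceed the 173 CPM of T cells beyond counting error. Endothelial cells carried Lipa above T cells in all 6 libraries. They were at 123 (87.0 to 169), 370 (339 to 403) and 234 (204 to 268) CPM under vehicle and at 184 (151 to 222), 264 (223 to 310) and 172 (123 to 234) CPM under PLX5622. The 7 dpi vehicle library was the highest, at 1.59 (1.11 to 2.10) in log2 over sham, and at 1.36 when cells with 3 or more UMIs of the myeloid genes were left out.

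Abca1 (chromosome 4, 53030789 to 53159988) was spread over microglia, MDMs, astrocytes and ependymal cells. In microglia it was at 203 (184 to 223), 479 (463 to 496) and 373 (359 to 386) CPM under vehicle. Under PLX5622 microglia were at 106 (59.3 to 175), 284 (233 to 343) and 312 (261 to 369) CPM. The injured libraries were higher than sham for either diet, and microglia exceeded T cells in all 6 libraries. Over sham vehicle, the ratio was 1.24 (1.09 to 1.39) in log2 at 7 dpi and lower, 0.87 (0.73 to 1.02), at 28 dpi. MDMs were at 317 (289 to 348), 583 (572 to 594) and 448 (437 to 459) CPM under vehicle and at 453 (422 to 486) and 550 (510 to 592) CPM after injury under PLX5622, with 2 UMIs in the 9 sham cells. Ependymal cells ranged from 162 to 383 CPM.

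Astrocytes carried Abca1 at 133 (109 to 162), 648 (536 to 775) and 384 (327 to 448) CPM under vehicle. Those of PLX5622-fed mice were at 108 (82.6 to 138), 943 (766 to 1148) and 416 (319 to 532) CPM. Both diets thus had a low sham level, the highest level at 7 dpi and a level between them at 28 dpi. Over the sham library of the same diet, the log2 ratio was 2.28 at 7 dpi and 1.53 (1.16 to 1.90) at 28 dpi under vehicle, and 3.13 (2.66 to 3.61) and 1.95 (1.42 to 2.48) under PLX5622. The myeloid genes summed to 1683, 21953 and 20886 CPM in vehicle astrocytes and to 104, 2219 and 943 CPM in those of PLX5622-fed mice. T cells had 20.5 and 30.5 CPM of Abca1 in the injured PLX5622 libraries. Without the cells that held 3 or more UMIs of the myeloid genes, which left 125 of 245 astrocytes at 28 dpi under vehicle, the ratio over sham was 1.80. The 7 dpi values rest on 69 and 39 astrocytes, and the 99 UMIs of the PLX5622 library came from 14 cells. With each cell weighted alike, the levels were 141, 591 and 397 CPM under vehicle and 125, 345 and 321 CPM under PLX5622. Thus 7 and 28 dpi stayed above sham for both diets, and the order of the diets was turned at 7 and at 28 dpi.

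**Figure D3:**
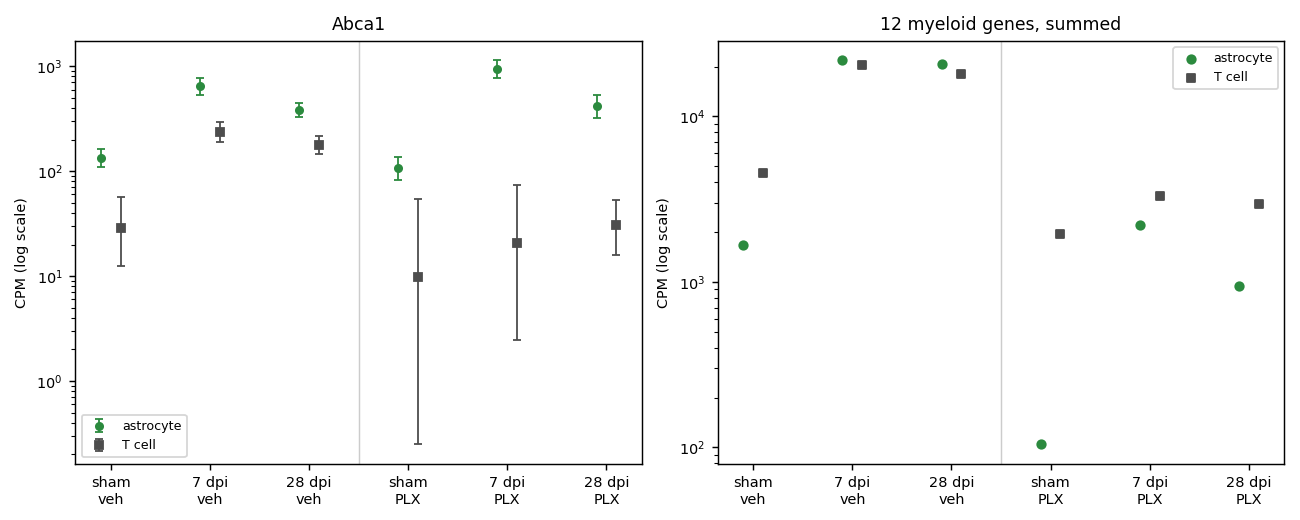
Abca1 in astrocytes and T cells (left, CPM on a log axis with exact Poisson 95% intervals) and the summed CPM of 12 myeloid genes in the same cells (right, log axis), in 6 libraries. Astrocytic Abca1 is higher at 7 and 28 dpi than in sham under both diets (108 to 943 CPM under PLX5622), while the myeloid sum of astrocytes is 20886 CPM or more in injured vehicle cords and 2219 CPM or less in injured PLX5622 cords.

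Abcg1 (chromosome 17, 31057694 to 31117984) was at 165 (145 to 188), 219 (212 to 225) and 209 (202 to 217) CPM in vehicle MDMs. Under PLX5622 MDMs were at 222 (201 to 245) CPM at 7 dpi and 270 (242 to 300) CPM at 28 dpi, with 1 UMI in the 9 sham cells. The 4 injured libraries lay close together. Microglia were at 58.7, 148 and 151 CPM under vehicle, beside 64.8, 113 and 138 CPM in T cells. Under PLX5622 they were at 49.4, 73.0 and 109 CPM, and the last exceeded the 43.3 CPM of T cells by 1.34 (0.51 to 2.23) in log2. In the other 5 libraries microglial Abcg1 did not exceed that of T cells beyond counting error. T cells of the sham vehicle and sham PLX5622 libraries held Abcg1 at 64.8 and 49.1 CPM, where their C1qa was at 216 and 19.6 CPM. Part of this Abcg1 may be their own, so that T cells are no measure of background for this gene. Whether microglia of these libraries express it was not tested. Astrocytes had no Abcg1 UMI in either sham library and were under the level of T cells after injury.

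**Figure D4:**
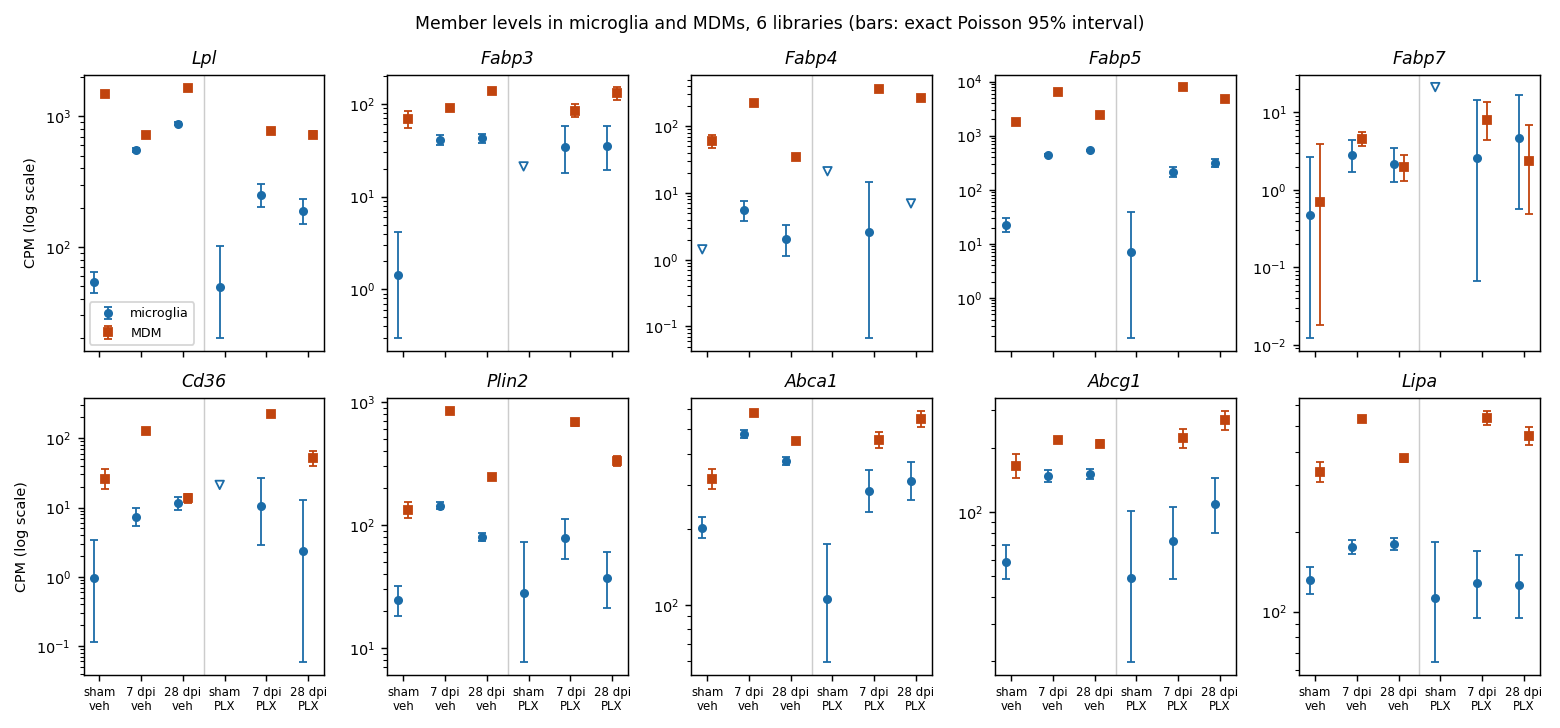
Level of each of the 10 genes in microglia (circles) and MDMs (squares), in CPM on log axes with exact Poisson 95% intervals, for the 3 stages with vehicle chow (veh) and PLX5622 chow (PLX). Open triangles mark 0 UMIs, drawn at the level of 3 UMIs, and the 9 MDMs of the sham PLX5622 library are not drawn. Plin2, Fabp5, Fabp4 and Cd36 of MDMs peak at 7 dpi (837, 6282, 220 and 127 CPM under vehicle), where Lpl has its low point under vehicle (724 CPM).

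In microglia after injury, 7 members had enough UMIs for a ratio. Fabp3, with 3 UMIs in sham, reached this minimum through the injured libraries alone and had to differ, so that its place in the counts carries no weight. At 7 dpi over sham under vehicle, 6 of the 7 were at least 2-fold higher (Lpl, Fabp3, Fabp5, Plin2, Abca1, Abcg1) and 0 lower, beside 4.02% of 6623 genes higher and 21.5% lower. Of these 6, Fabp5, Plin2 and Abcg1 were not above T cells beyond counting error. The seventh, Lipa, was at 0.42 (0.23 to 0.61). At 28 dpi, 5 of 7 were higher (Lpl, Fabp3, Fabp5, Plin2, Abcg1) and 0 lower, beside 3.62% of 7162 genes higher and 12.5% lower. Fabp5, Plin2 and Abcg1 were again not above T cells in CPM beyond counting error. The median log2 ratio over all genes was -0.54 at 7 dpi and -0.44 at 28 dpi. Factors of TMM, which center most genes, would add 0.63 and 0.50 to these ratios in microglia and 0.35 and 0.32 in MDMs.

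In MDMs under vehicle, 4 of 9 members were at least 2-fold higher at 7 dpi than in sham (Cd36, Fabp4, Fabp5, Plin2), beside 4.09% of 8303 genes, and 1 was lower (Lpl), beside 11% of genes. At 28 dpi 0 of 9 were higher and 0 lower, beside 1.53% and 5.63% of 7714 genes. The largest ratio then was that of Fabp3, at 1.00 (0.70 to 1.31) by rounding, just under 2-fold. The ratios of Fabp4 and Cd36 over sham at 28 dpi were -0.77 (-1.11 to -0.42) and -0.94 (-1.45 to -0.39), but 0.52 and 0.24 after thinning, so that their direction hangs on how cells were weighted. The median was 0.88 at 7 dpi and 0.34 at 28 dpi over the members and -0.25 at both times over all genes.

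Between diets, Lpl was lower in microglia under PLX5622 at both times, and Fabp4 and Cd36 were higher in MDMs at 28 dpi. Cd36 was carried by 12 of the 161 MDMs of the 28 dpi PLX5622 library. In microglia at 7 dpi, 0 of 7 were at least 2-fold higher and 3 lower (Lpl, Fabp5, Abcg1), beside 1.89% and 4.88% of 5616 genes. At 28 dpi, 0 of 7 were higher and 2 lower (Lpl, Plin2), beside 1.64% and 5.87% of 6359 genes. Of these calls, Fabp5 at 7 dpi and Plin2 at 28 dpi were not above T cells in the vehicle library beyond counting error, and are not read as microglial expression. Abcg1 at 7 dpi was not above T cells there either, but T cells may make Abcg1 themselves. All 7 ratios were under 0 at both times, but Lipa was at 0.55 at 7 dpi after thinning and Fabp3 at 0.60 at 28 dpi with cells weighted alike. T cells of the PLX5622 libraries held fewer myeloid transcripts, as given above, and their part in these ratios was not tested. In MDMs at 7 dpi, 0 of 10 were higher and 0 lower, beside 1.83% and 2.17% of 8295 genes. At 28 dpi, 2 of 9 were higher (Fabp4, Cd36) and 1 lower (Lpl), beside 2.33% and 2.48% of 7635 genes, with Fabp5 just under 2-fold. The 2 comparisons of a day use separate cells of the same libraries.

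**Figure D5:**
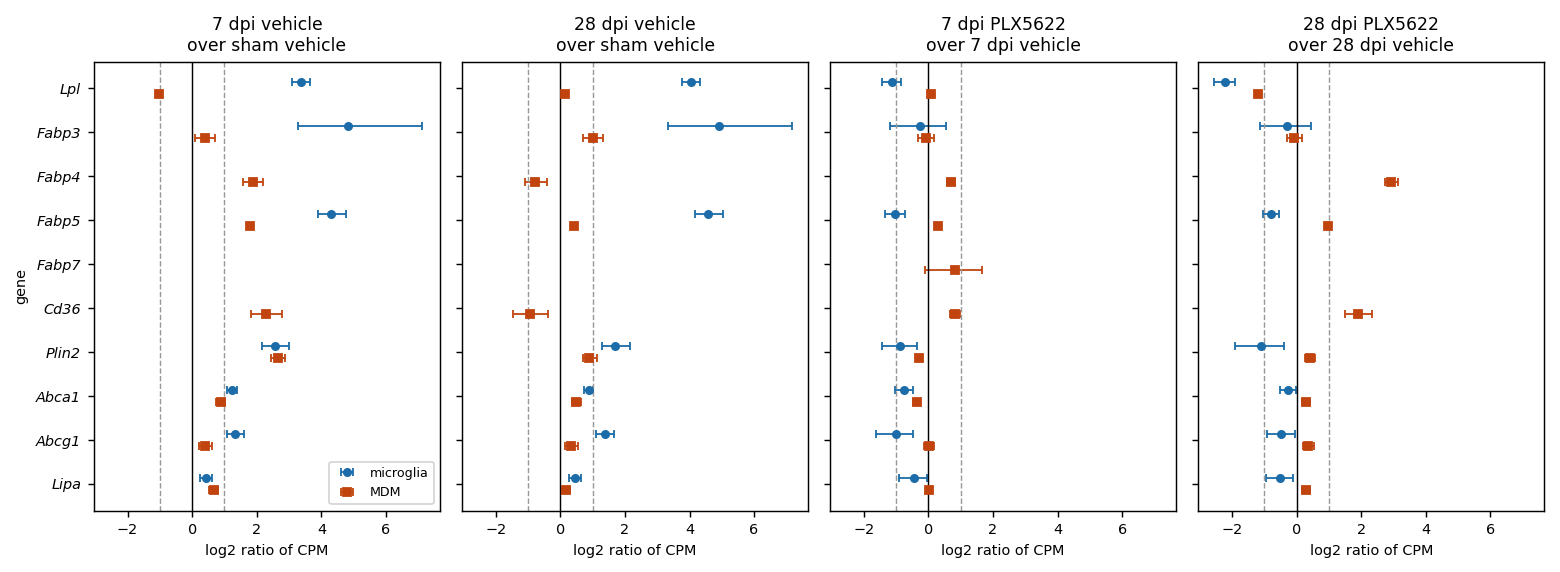
Log2 ratio of CPM with exact conditional binomial 95% intervals for members whose UMIs in both libraries came to 100 or more, in microglia (circles) and MDMs (squares), for 4 comparisons. Dashed lines mark a 2-fold ratio. Lpl lies on opposite sides of 0 in microglia (3.37) and MDMs (-1.03) at 7 dpi, and Fabp4 and Cd36 of MDMs lie farthest right under PLX5622 at 28 dpi (2.93 and 1.91).

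Outside the macrophages, injured vehicle cords gave high ratios against few UMIs in sham. In endothelial cells at 7 dpi, 6 of 6 members were at least 2-fold higher than in sham and 0 lower, beside 5.43% and 4.58% of 3038 genes. Fabp5, Lpl and Abcg1, with 1, 2 and 9 UMIs in sham, reached the minimum through the injured library alone and had to differ. The count was 1 without cells holding 3 or more myeloid UMIs, 2 after thinning and 3 without doublets. Of the 6, Lipa and Fabp5 were above T cells in CPM beyond counting error. After thinning, 20.7% of endothelial cells had a Fabp5 UMI, beside 28.1% of T cells, so that for Fabp5 the order hangs on the measure. The summed myeloid genes of endothelial cells went from 1598 to 9234 CPM between these libraries, and their part in the ratios was not tested. At 28 dpi, 2 of 5 endothelial ratios were at least 2-fold higher (Fabp5, Lpl) and 0 lower, beside 5.06% and 2.71% of 2213 genes, and both genes, which again had 1 and 2 UMIs in sham, were below T cells there. After thinning, and without cells holding 3 or more myeloid UMIs, 0 were left. In astrocytes at 28 dpi, 2 of 4 were higher (Lpl, Abca1) and 0 lower, beside 13.6% and 17.9% of 1891 genes. Lpl, with 6 UMIs in sham, reached the minimum through the injured library alone, and after thinning the count was 0. Fabp7 was at -0.81 (-1.22 to -0.43), but at 0.34 without cells holding 3 or more myeloid UMIs, and Fabp5 at 0.65. Astrocytic Lpl, with 7.70 CPM in sham and 753 CPM at 28 dpi under vehicle, was at 52.8 CPM at 28 dpi under PLX5622.

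Without injury, few members could be compared between diets outside the macrophages. In astrocytes of sham cords, 0 of 3 were at least 2-fold higher or lower than under vehicle (Abca1 at -0.31, Fabp5 at 0.13, Fabp7 at -0.43), beside 0.701% of 2282 genes in each direction. In endothelial cells 0 of 1 passed that limit (Lipa at 0.58, 0.03 to 1.15), beside 1.38% of 1741 genes in each direction. These counts are too small to be read against that share.

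Of 52 further genes of the pathway, 50 were in the table. In microglia, 1 of 30 was at least 2-fold higher and 5 lower at 7 dpi than in sham, and 3 of 34 were higher and 3 lower at 28 dpi. The shares over all genes given above were 4.02% and 21.5% at 7 dpi and 3.62% and 12.5% at 28 dpi, so that at neither time was the share of lower genes above that of all genes. The scavenger receptor Msr1 went from 1.91 to 32.0 and 16.5 CPM. Mgll, which cleaves monoacylglycerol, was at 51.5, 15.6 and 22.6 CPM, and the transporter Abca9 at 223, 76.6 and 87.4 CPM, so that both were lower in the 2 injured libraries. Scarb1, Acsl1 and Acsl4 were the others lower at 7 dpi, and Acsl1 the other at 28 dpi. Colec12 was at 26.9 CPM at 28 dpi, with 1 UMI in sham. With so few UMIs in sham, Msr1 and Colec12 reached the minimum through the injured libraries alone and had to differ. Neither was set beside T cells. Npc2, which hands cholesterol out of the lysosome, was at 2133 CPM at 28 dpi against 1051 CPM in sham.

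In MDMs, 5 of 39 pathway genes were at least 2-fold higher and 2 lower at 7 dpi, and 2 of 36 were higher and 0 lower at 28 dpi (Msr1, Colec12). Over all genes, 4.09% and 11% were higher and lower at 7 dpi, and 1.53% and 5.63% at 28 dpi. The lower genes at 7 dpi were Mgll, at 26.1 CPM in sham and 9.66 CPM at 7 dpi, and Abca9, at 51.5 and 12.0 CPM. Msr1 was at 35.3, 107 and 73.3 CPM, and Lrp1, an endocytic receptor, at 207 CPM in sham and 467 CPM at 7 dpi. Slc27a1, a fatty acid transporter, was at 14.1 CPM in sham and 60.9 CPM at 7 dpi, and Nr1h3, the oxysterol sensor LXR alpha, at 5.64 and 19.9 CPM. Angptl4, an inhibitor of lipoprotein lipase, had no UMI in sham MDMs and 11.2 CPM at 7 dpi. It thus reached the minimum through the injured library alone and had to differ. Under PLX5622 at 28 dpi, 2 of 36 were higher than under vehicle (Slc27a1 at 77.7 against 23.4 CPM, Mgll at 86.3 against 34.3 CPM) and 1 lower (the receptor Olr1). At 7 dpi, 2 of 39 were higher (Olr1, Angptl2) and 1 lower (Abca9). In microglia between diets, 0 of 24 were higher and 2 lower (Msr1, Lmf1) at 7 dpi, and 0 of 30 higher and 2 lower (Msr1, Abca2) at 28 dpi. These few genes are to be read beside the shares over all genes given for the same comparisons.

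Endothelial cells had 6 of 16 pathway genes at least 2-fold higher and 1 lower at 7 dpi, and 5 of 11 higher and 0 lower at 28 dpi, beside 5.43% and 4.58% of all genes at 7 dpi and 5.06% and 2.71% at 28 dpi. Lrp1, Trem2, Npc2, Psap and Gm2a were higher at both times, Soat1 was higher and Mgll lower at 7 dpi. Trem2, a lipid receptor of microglia, was at 58.2, 679 and 856 CPM, in step with the summed myeloid genes. These were at 1598, 9234 and 11385 CPM in endothelial cells. The counts take all cells of the cluster and were not set beside T cells. The part of myeloid transcripts in them was not tested, so that they are not read as a response of endothelial cells. Astrocytes at 28 dpi had 2 of 14 higher (Trem2, Npc2) and 1 lower, Acsl3, an acyl-CoA synthetase, at 1996 CPM in sham and 826 CPM at 28 dpi. In sham astrocytes under PLX5622, 0 of 16 were higher and 1 lower, Trem2, at 3.41 against 147 CPM, and in endothelial cells 0 of 6 were higher or lower.

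Within MDMs of the 7 dpi vehicle library, thinned to 1000 UMIs, the members did not all sit in the same cells. Lpl was detected in 30.6% of the cells with Fabp5 and in 53.4% of those without it. Fabp4 was found in 13.9% and 0.699% of the same cells. Of the cells with Fabp4, 19.1% had Cd36 and 59.7% had Plin2, against 5.67% and 41.7% of the cells without Fabp4. At 28 dpi Lpl was detected in 55.1% of the MDMs with Fabp5 and in 68.8% of those without. These are cells of 1 library each, and the shares carry no test.

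Over the 66 groups of cluster and library with at least 20 cells, the genes whose pattern was most like that of a member were found by Pearson's r of log2(CPM + 10), among 4722 genes. For Lpl they were Ctsd (0.869), Ctsb (0.863) and Trem2 (0.858), and for Fabp5 Gpnmb (0.858), Spp1 (0.835) and Gla (0.819). Fabp4 was nearest to Hpse (0.808), Ms4a7 (0.777) and Atp6v0d2 (0.762), and Fabp3 to Fblim1 (0.825), Pld3 (0.819) and Igf1 (0.787). Abca1 was near to Tpp1 (0.852) and Nek6 (0.806), and Abcg1 nearest to Lilrb4 (0.752), Apoc2 (0.746) and Cd68 (0.742). Lipa was nearest to Renbp (0.791), Akr1a1 (0.786) and Tmem106a (0.783), and Plin2 to Ninj1 (0.781), Ms4a7 (0.780) and Apoc2 (0.773). Cd36 had weaker partners, Gpx1 (0.695), Mpp1 (0.693) and Blvrb (0.690). Fabp7 had the closest, Ptprz1 (0.948), Gpr37l1 (0.914) and Gpm6b (0.910). The groups share libraries, depth and background transcripts, so that these values describe the table and carry no test.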

How the data were processed

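Single-cell RNA-seq was used from 6 libraries, 1 per condition. The authors aligned reads and counted UMIs with Cell Ranger (3.0.2 in the file headers) and used Seurat to filter and cluster the cells. The table they deposited holds counts of UMIs per gene and cell, and gives each cell a cluster number. The table leaves out 254 barcodes, each with under 200 genes, and lists no mitochondrial gene. Bulk RNA-seq samples were not analysed here.

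UMIs were summed per cluster and library and divided by their total (CPM). Clusters were named by markers. A gene at 0 in 1 of 2 libraries was set to 3 counts. Genes that the text names are the 10 members, a list of 52 pathway genes (those with a 2-fold ratio), 12 myeloid genes, the markers, and the 3 genes most like each member, of which 1 is not reported here. The members and lists were chosen with earlier results of these data known, and the ratios between 7 and 28 dpi or for PLX5622-fed astrocytes over their own sham were added after values were seen. Shares of cells used the 18200 cells with at least 1000 UMIs, each thinned to 1000 UMIs. No test between conditions was made, and intervals cover counting error only. Sham, 7 dpi and 28 dpi libraries held 1795, 7439 and 9846 cells (vehicle) and 492, 504 and 940 cells (PLX5622). Doublets were left in. As an alternative, the highest-scored cells of each library up to the expected rate were left out (1256 cells, 5.98%), and this setting measures no doublet rate. Other alternatives were edgeR TMM factors and DESeq2 size factors (for scaling only), totals without ribosomal protein genes, equal weight of cells, thinned cells, cells with at least 500 genes, cells with under 3 myeloid UMIs, minimums of 50 and 200 UMIs, and a fold of 1.5. Scaling factors came from DESeq2 1.42.0 and edgeR 4.0.16 in R 4.3.3, and the rest was computed in Python 3.11.15 with scanpy 1.11.5, pandas 2.3.3, scipy 1.17.1 and numpy 2.4.6. The steps were tested on simulated counts.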

Additional observations from a re-analysis of the deposited data

Results flagged for a closer look

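Several members had ratios of opposite direction in a pair of cell types or times. None of these differences was tested, since each condition is 1 library.

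Lpl at 7 dpi over sham under vehicle was at a log2 ratio of 3.37 in microglia and -1.03 in MDMs. In MDMs alone it was at -1.03 at 7 dpi and 0.16 at 28 dpi. Between diets at 7 dpi, Lpl was at -1.14 in microglia and 0.09 in MDMs, and in MDMs it was at 0.09 at 7 dpi and -1.20 at 28 dpi. Fabp5 at 7 dpi was at -1.03 in microglia and 0.30 in MDMs between diets, with microglia under the level of T cells in the vehicle library. Plin2 at 28 dpi was at -1.09 in microglia and 0.42 in MDMs between diets.

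In MDMs over sham under vehicle, Cd36 was at 2.28 at 7 dpi and -0.94 at 28 dpi, and Fabp4 at 1.88 and -0.77. The 28 dpi values of both were above 0 after thinning.

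Barcodes that the table leaves out also held members. The 29 such barcodes of the 7 dpi PLX5622 library had 9 Fabp5 UMIs of 16012 in all, and the 121 of the sham vehicle library had 9 Cd36 UMIs of 72315. Both are above the limit of 3 counts, and their source was not tested.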

How the results depend on the processing

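Of 606 alternative values of 84 member ratios, 581 kept their sign and none of the ratios past 2-fold turned to the other side. Of the 135 alternative counts of members past 2-fold, 106 stayed within 1.5 times of the value given in the report. The other 29 were as follows, and the cause was not tested. For MDMs at 28 dpi over sham (0 in the report) the count was 2 with TMM, 2 with DESeq2 factors, 1 without ribosomal genes, 3 with cells weighted alike, 4 after thinning, 1 without doublets and 4 at a fold of 1.5. Between diets, microglia at 7 dpi (3) gave 1 with cells weighted alike and 5 at a fold of 1.5, and at 28 dpi (2) gave 1 with cells weighted alike and 1 after thinning. MDMs at 7 dpi (0) gave 1 with cells weighted alike, 2 after thinning and 3 at a fold of 1.5, and at 28 dpi (3) gave 1 after thinning. Astrocytes at 28 dpi (2) gave 0 after thinning, 1 without cells of 3 or more myeloid UMIs, 4 with a minimum of 50 UMIs and 4 at a fold of 1.5. Endothelial cells at 7 dpi (6) gave 2 after thinning, 3 without doublets and 1 without cells of 3 or more myeloid UMIs. At 28 dpi (2) they gave 4 with TMM, 4 with DESeq2 factors, 0 after thinning, 1 without doublets, 0 without cells of 3 or more myeloid UMIs, 4 with a minimum of 50 UMIs and 4 at a fold of 1.5. Abcg1 and Lipa in MDMs between diets at 7 dpi, at 0.02 and 0.01, fell just under 0 with either set of factors. Endothelial Plin2 at 7 dpi was at 1.04 and at 0.11 without cells of 3 or more myeloid UMIs, and Abca1 of endothelial cells at 28 dpi went from 0.82 to -0.30. No paired analysis was possible because each condition is 1 library.

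The libraries of PLX5622-fed mice held few cells, as low as 9 MDMs, 29 microglia and 39 astrocytes in a library, so that levels there have wide intervals. Differences between mice are not covered by any interval.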
